A study of Mus musculus with 6 samples.

Results

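Sphingosine-1-phosphate (S1P) receptors and Cd69, whose product acts on one of them, were examined in 3 subsets of mouse natural killer (NK) cells. The set comprised S1pr1, S1pr4, S1pr5 and Cd69, taken as named genes and not for their values, with all probe sets that the array annotation gives to each. It held 4 of the 18193 genes measured and 4 of the 34945 probe sets with a single gene symbol, since each gene has 1 probe set: 1423571_at for S1pr1, 1451024_at for S1pr4, 1449365_at for S1pr5 and 1428735_at for Cd69.

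All samples were NK1.1+ spleen cells of RAG-/- mice, in which antigen receptor genes stay unrearranged, so that mature T and B cells are missing, and no treatment is named. The sources used here do not give the age or background strain of the mice. Cells were sorted by flow cytometry into a CD27+CD11b- subset, a CD27+CD11b+ subset and a CD27-CD11b+ subset, commonly placed in this order along NK cell maturation, and RNA of 2 samples of each was hybridised to Affymetrix mouse 430 2.0 expression arrays (6 arrays). The design text calls the replicates independent without saying whether different animals were used, so p-values reflect only how these samples varied, possibly for technical reasons. The titles of the CD27+CD11b- samples name only the absence of CD11b, and their sort label adds CD27. For CD27-CD11b+ replicate 1, the sort label names the CD27+CD11b- gate and contradicts the title. Samples were grouped by title. On that array the log2 value was 6.96 for Cd27 and 9.93 for Itgam, which encodes CD11b, against 6.47 and 9.44 on the other CD27-CD11b+ array, whereas the CD27+CD11b- arrays had Cd27 values of 8.78 and 8.03 and Itgam values of 6.37 and 5.88.

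S1P is a lipid that is abundant in blood and lymph and scarce inside tissues, and lymphocytes follow this gradient out of lymphoid organs through G protein-coupled receptors. S1P1, encoded by S1pr1, drives the exit of T and B cells, while S1P5, encoded by S1pr5, is known for its part in the exit of NK cells from bone marrow and lymph nodes. S1P4, encoded by S1pr4, is found mainly on blood and lymphoid cells. CD69 is an early activation antigen that binds S1P1 on the cell surface and brings about its internalisation, so that S1P1 protein may be lost with no change in its mRNA. An array measures mRNA only.

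The promoter windows annotated for 2 of the receptor genes were unlike each other in base content. Whether NK cells use these annotated starts was not tested. RefSeq promoters (250 bases before to 50 after the annotated start, GRCm38.p6) were matched for S1pr4 and S1pr5 among the 4 genes. Both lie on the minus strand, S1pr5 at chr9:21248394-21248693 and S1pr4 at chr10:81500088-81500387, and both are printed 5′ to 3′ in the direction of transcription. Capitals mark matches to any of 4 short motifs, searched on both strands: the T-box core GTGTGA, the ZEB-type E-box CAGGTG, the KLF CACCC box CCACACCC and the GC box GGGCGG.
S1pr5: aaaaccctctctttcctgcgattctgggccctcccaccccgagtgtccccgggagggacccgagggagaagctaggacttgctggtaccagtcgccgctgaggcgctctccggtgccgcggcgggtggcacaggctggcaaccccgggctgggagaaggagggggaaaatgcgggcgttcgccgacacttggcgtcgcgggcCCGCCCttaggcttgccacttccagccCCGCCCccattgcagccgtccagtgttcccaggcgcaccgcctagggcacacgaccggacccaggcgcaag
S1pr4: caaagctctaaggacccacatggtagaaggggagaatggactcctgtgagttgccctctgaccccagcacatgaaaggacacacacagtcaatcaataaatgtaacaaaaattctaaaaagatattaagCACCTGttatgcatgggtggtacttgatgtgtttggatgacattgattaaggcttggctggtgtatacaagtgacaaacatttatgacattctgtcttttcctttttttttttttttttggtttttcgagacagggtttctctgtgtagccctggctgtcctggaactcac
The S1pr5 sequence has a GC content of 69.3% and 27 CpG dinucleotides, and 89.5% of the 32851 promoters in the table have less GC. It holds 2 GC boxes, starting at -48 and -21 bases from the start, a motif found in 35.7% of all promoters. The S1pr4 sequence has a GC content of 41.0% and 1 CpG, and 12.1% of promoters have less GC. It holds 1 ZEB-type E-box, at -121, a motif found in 20.2% of promoters. The median promoter has 52.7% GC and 7 CpG. The T-box core occurs in 14.5% and the CACCC box in 3.56% of all promoters, and neither set of letters is in these windows. A match describes the letters only.

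All values below are log2 expression values made by the authors with RMA, in which 1 unit is a 2-fold difference. The comparisons were CD27+CD11b+ minus CD27+CD11b- (the CD11b step), CD27-CD11b+ minus CD27+CD11b+ (the CD27 step) and CD27-CD11b+ minus CD27+CD11b- (the outer comparison). A limma model was fitted to all 18193 genes and 6 arrays, and a gene was called at a Benjamini-Hochberg adjusted p under 0.05. Calls made up 0.033% of genes as higher and 0.0879% as lower in the CD11b step, 0.17% and 0.126% in the CD27 step, and 2.24% and 1.15% in the outer comparison. The outer count of 617 calls fell to 84 without CD27-CD11b+ replicate 1. Leaving out any other array of this comparison also lowered the count, and a subset then holds 1 sample. Calls can be lost in this way with little change in a difference, here and below. A level above 6.59, the 95th percentile of the means of 52 measured genes of other tissues, was counted as above background, and all 4 genes exceeded it on every array.

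Features of the arrays that bear on the results were as follows. A group of 3 unnamed probe sets divides the arrays, with a mean between 12.57 and 12.81 on 1 array of each subset (replicate 2 of CD27+CD11b- and of CD27+CD11b+, and replicate 1 of CD27-CD11b+, together the on arrays) and between 4.33 and 4.47 on the others (the off arrays). These 3 were picked among the unnamed probe sets for the widest gap between the 3 highest and 3 lowest arrays. A wide split into 3 and 3 arrays therefore follows from the choice. What this division stands for is not given in the labels. The NK cell markers were present throughout: 12 of 12 were above background and their mean level ranged from 11.90 to 12.51. Markers of other cells were not all absent. Of 19 monocyte and macrophage markers 14 were above background in at least 1 subset, with a mean level of 6.91 to 7.27 on the on arrays and 5.48 to 6.35 on the off arrays, whereas 0 of 15 endothelial markers were above background (mean level 4.79 to 5.14), as were 1 of 9 B cell markers (4.56 to 5.13), 4 of 9 T cell markers (6.04 to 6.90) and 2 of 9 dendritic cell markers (5.91 to 6.16). All 7 markers of other innate lymphoid cells were above background, among them Il7r, the interleukin-7 receptor, which fell from a mean of 11.59 through 9.26 to 7.30. In bulk samples, fewer cells of a type and less RNA per cell cannot be told apart.

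S1pr5 was the 1 gene of the 4 that passed the test, in the CD27 step and in the outer comparison, and its level was 5.83 times higher in CD27-CD11b+ than in CD27+CD11b- cells. S1pr5 was 9.88 and 9.49 in the CD27+CD11b- samples (replicate 1 first, here and below), 10.69 and 10.61 in the CD27+CD11b+ samples and 12.18 and 12.27 in the CD27-CD11b+ samples. The arrays of the 3 subsets did not overlap in any comparison, and the subset means were 9.68 ± 0.28, 10.65 ± 0.06 and 12.23 ± 0.06 (SD, n = 2 each). In the outer comparison the difference was 2.54 (SE 0.17, limma adjusted p = 4.66e-04), a 5.83-fold difference with a 95% confidence interval of 4.43 to 7.67. Of all 18193 genes, S1pr5 had the 17th highest outer difference. In the F test over the subsets, which called 1.35% of genes, its limma adjusted p was 0.00147.

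Taken by step, S1pr5 rose at the loss of CD27. In the CD27 step the difference was 1.58 (SE 0.17, limma adjusted p = 0.0161), or 2.98-fold with an interval of 2.27 to 3.93. In the CD11b step the difference was 0.97 (SE 0.17), or 1.95-fold with an interval of 1.48 to 2.57, and it did not pass the test (limma adjusted p = 0.226). The difference between the steps was 0.61 with an interval of -0.07 to 1.30 (limma adjusted p = 0.99984), and the test of that difference called 0.0055% of genes, so a larger rise at the loss of CD27 than at the gain of CD11b was not shown. Within the off arrays the CD11b and CD27 steps were 0.81 and 1.58, and within the on arrays 1.12 and 1.58. Markers of other cells moved along with the subsets. Of 7 markers of other innate lymphoid cells, Il7r, Tmem176a, Tmem176b, Cd163l1 and Kit (5 of 7) fell in the outer comparison, and the mean level of the list was 9.03 and 9.37 in the CD27+CD11b- samples against 7.19 and 6.88 in the CD27-CD11b+ samples. Of 9 T cell markers 2 were called, Cd3d and Cd28, both lower in the outer comparison, and 6 of the 9 differences were negative. Of 9 B cell markers 1 was called, Cd22, lower in the CD11b step and in the outer comparison, and 7 of the 9 outer differences were negative. Without CD27-CD11b+ replicate 1 the outer calls of Kit, Cd3d and Cd28 were lost (limma adjusted p = 0.0574, 0.182 and 0.112). Of 19 monocyte and macrophage markers 16 had positive outer differences, with a median of 0.48, and 0 were called, or 6, all higher, with the array division as a block. All 12 NK cell marker differences were positive, with a median of 0.45, and 2 were called, Prf1 and Tbx21. Both calls were lost without CD27-CD11b+ replicate 1, where the outer differences were 1.45 and 1.08. The part of these markers in the S1pr5 result was not tested.

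The outer difference of S1pr5 was called in all 15 alternative analyses, with values from 2.35 to 2.74 and limma adjusted p up to 0.0141. Several of these analyses leave the difference itself unchanged by design, as set out in the closing section. The call in the CD27 step was less secure. Without CD27-CD11b+ replicate 1, the array with the contradictory sort label, the CD27 step was 1.62 with a limma adjusted p of 0.179, and the outer difference was 2.59 with a limma adjusted p of 0.0141. Leaving out CD27-CD11b+ replicate 2, CD27+CD11b+ replicate 1 or CD27+CD11b+ replicate 2 gave CD27 steps of 1.53, 1.62 and 1.54, with limma adjusted p of 0.0999, 0.0980 and 0.105.

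**Figure D1:**
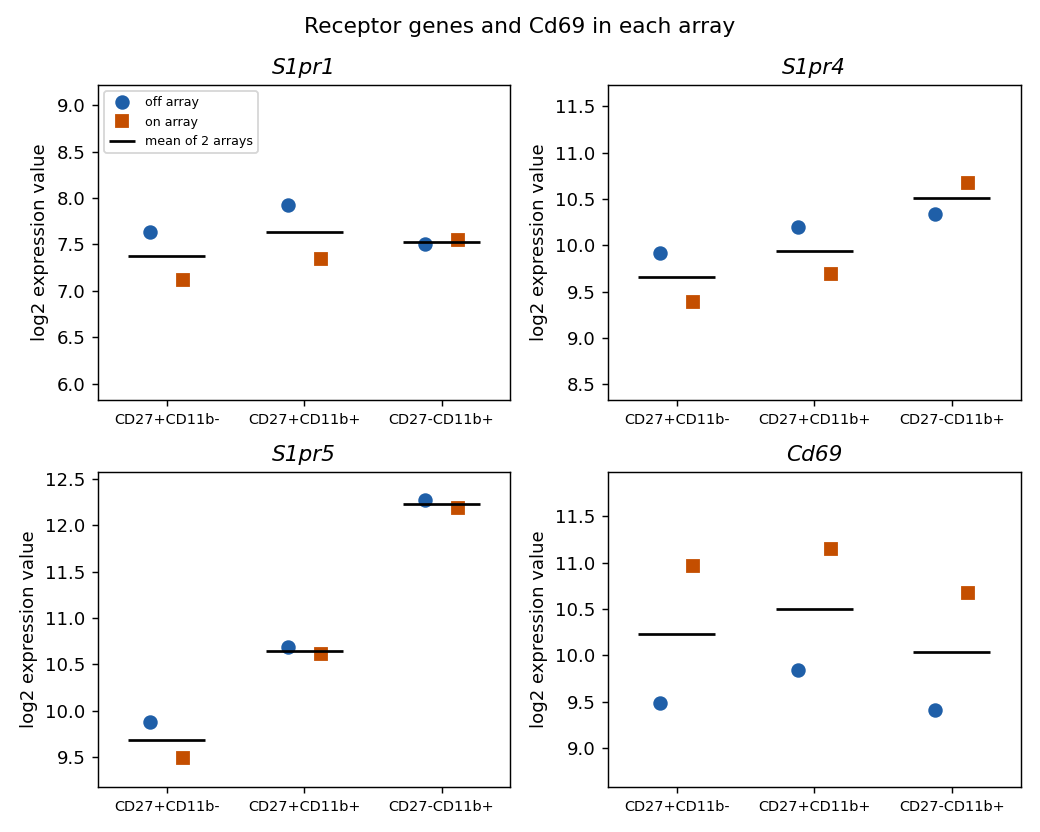
Log2 expression values (y axis, 3.4 units in every panel) of S1pr1, S1pr4, S1pr5 and Cd69 on each array of the 3 subsets (x axis), with blue circles for off arrays, orange squares for on arrays and black lines for subset means. S1pr5 climbs from 9.49 and 9.88 to 12.18 and 12.27 with no overlap between subsets, while Cd69 is higher on the on array of every subset.

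S1pr4 had its highest values in CD27-CD11b+ cells, but none of its differences passed the test. S1pr4 was 9.92 and 9.39 in the CD27+CD11b- samples, 10.19 and 9.69 in the CD27+CD11b+ samples and 10.67 and 10.34 in the CD27-CD11b+ samples. The CD27-CD11b+ arrays were above all others, and the arrays of the other subsets overlapped. The outer difference was 0.85 (SE 0.25, limma adjusted p = 0.112), 1.80-fold, with an interval from 0.29 to 1.42 on the log2 scale. The CD11b step was 0.29 (limma adjusted p = 0.99996) and the CD27 step 0.56 (limma adjusted p = 0.453). Within the on arrays, a division described above, the CD27 step of S1pr4 was 0.98 and the outer difference 1.29, and within the off arrays they were 0.14 and 0.42. Leaving out 1 array at a time, the outer difference of S1pr4 ranged from 0.59 without CD27+CD11b- replicate 2 (limma adjusted p = 0.355) to 1.12 without CD27+CD11b- replicate 1 (limma adjusted p = 0.109), and was 0.68 and 1.02 without CD27-CD11b+ replicates 1 and 2 (limma adjusted p = 0.447 and 0.167). The CD11b step ranged from 0.02 to 0.55 and the CD27 step from 0.31 to 0.82.

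No difference between subsets was detected for S1pr1. S1pr1 was 7.64 and 7.11 in the CD27+CD11b- samples, 7.93 and 7.35 in the CD27+CD11b+ samples and 7.55 and 7.51 in the CD27-CD11b+ samples. The arrays of all subsets overlapped. The subset means were 7.37 ± 0.37, 7.64 ± 0.41 and 7.53 ± 0.03 (SD, n = 2 each), and the order of these neighbours is within their spread. The outer difference was 0.15 (SE 0.24, limma adjusted p = 0.785) with an interval from -0.40 to 0.71. The CD11b step was 0.27 with an interval from -0.29 to 0.82, and the CD27 step was -0.11 with an interval from -0.67 to 0.44 (limma adjusted p = 0.99996 and 0.904). The S1pr1 intervals ended below those of S1pr5 in the CD27 step (1.18 to 1.97) and in the outer comparison (2.15 to 2.94). In the CD11b step the intervals of the 2 genes overlapped, that of S1pr5 being 0.57 to 1.36.

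The remaining receptor genes of the family gave no call. S1pr2 encodes a receptor that couples mainly to G12 and G13 proteins, and S1pr3 one that is prominent in the heart and vessels. S1pr2 ranged from 7.36 to 7.92 on its brighter probe set, 1447880_x_at, whose name marks a possible match to other transcripts, and its outer difference was 0.33 (SE 0.17, limma adjusted p = 0.359). On 1428176_at, fitted with every probe set of the array, the outer difference was 0.86 (SE 0.24, limma adjusted p = 0.184). S1pr3 was below background on each of its 3 probe sets. Of the 5 receptor genes, 1 was called higher in the CD27 step and 1 in the outer comparison, both times S1pr5, and 0 were called in the CD11b step, where 1 had an unadjusted limma p under 0.05. The median outer difference of the 5 was 0.33, that of S1pr2, against -0.0055 for all genes. All genes include those below background. Of genes above background, 67.27% had a smaller outer difference than S1pr2 on its brighter probe set.

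**Figure D2:**
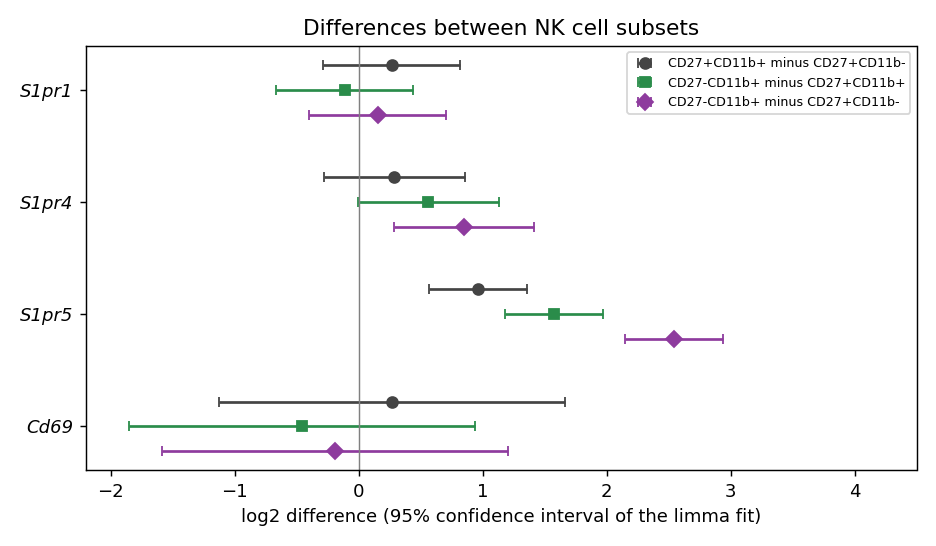
Log2 differences (x axis) of S1pr1, S1pr4, S1pr5 and Cd69 (y axis) in the CD11b step (grey circles), the CD27 step (green squares) and the outer comparison (purple diamonds), with bars for 95% confidence intervals of the limma fit. The S1pr5 intervals lie above 0, the outer one from 2.15 to 2.94, whereas those of Cd69 span 0 widely, the outer one from -1.58 to 1.21.

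Cd69 varied more between the 2 arrays of each subset than between subset means, and no difference between subsets passed the test. Cd69 was 9.49 and 10.97 in the CD27+CD11b- samples, 9.84 and 11.15 in the CD27+CD11b+ samples and 10.67 and 9.41 in the CD27-CD11b+ samples. Each subset had 1 array near or above 10.67 and 1 below 9.85, and the subsets overlapped in every comparison. The CD11b step was 0.27, the CD27 step -0.46 and the outer difference -0.19 (SE 0.60 each, limma adjusted p = 0.99996, 0.838 and 0.902).

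The Cd69 values followed the division of the arrays. The on array exceeded the off array by 1.48 in the CD27+CD11b- subset, by 1.31 in the CD27+CD11b+ subset and by 1.26 in the CD27-CD11b+ subset, with a mean of 1.35. All 3 on arrays were above all 3 off arrays, as they were for 8.29% of genes, while for 4.62% of genes all 3 were below. By the size of this difference Cd69 stood 60th of all genes and 44th of the 8377 genes above background. The receptors did not share the pattern, with on minus off differences of -0.52, -0.58 and 0.04 for S1pr1, -0.53, -0.51 and 0.34 for S1pr4, and -0.39, -0.08 and -0.08 for S1pr5 in the same order of subsets.

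Within the off and on arrays the Cd69 differences had the same sign: 0.35 and 0.18 in the CD11b step, -0.43 and -0.48 in the CD27 step, and -0.08 and -0.30 in the outer comparison. With the division as a block in the limma model, the standard error of the Cd69 differences fell from 0.60 to 0.14, and none was called (limma adjusted p = 0.867, 0.182 and 0.483 in the CD11b, CD27 and outer comparison). For S1pr5 the blocked limma adjusted p was 0.0547, 0.00336 and 9.83e-05, and for the outer difference of S1pr4 it was 0.0537. This blocked fit called 0.0605% of all genes higher and 0.258% lower in the CD11b step, 0.896% and 0.731% in the CD27 step, and 5.3% and 2.83% in the outer comparison. The division was known from earlier results of these data when the block was chosen.

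Some other genes that are switched on early in lymphocyte activation, as Cd69 is, were also higher on the on arrays. Of 26 such genes, 10 had all on arrays above all off arrays and 0 the reverse, against 8.29% and 4.62% of all genes. The median on minus off difference of the 26 was 0.48, against -0.0004 for all genes. Of the 26 genes 25 were above background, against 46.05% of all genes, so the sets compared are unlike. The shares among genes above background were not computed. The 10 were the transcription factor genes Fos, Fosb, Jund, Egr1, Egr2 and Nr4a1, the phosphatase gene Dusp1, and Tnfaip3, Nfkbia and Nfkbid, which restrain or modulate NF-κB. Nfkbid differed by 1.40 and Fosb by 1.16, while Nfkbia differed by 0.14. Of the 35 genes of receptor coupling, 7 had all on arrays above all off arrays and 0 the reverse, with a median of 0.07, and of 21 homing genes 3 were above and 1 below, with a median of 0.08. Among them, chosen after their values were seen, Rgs1 and Rgs16, which speed the switching-off of G proteins, differed by 0.93 and 1.32, and Cxcr4, the receptor that retains cells in bone marrow, differed by 1.34. Of the 19 monocyte and macrophage markers, 14 had all on arrays above all off arrays, with a median difference of 1.35, and Cd14, Fcgr1, Ms4a7, Vcan and Ccr1 were below background in every subset. For 12 NK cell markers the median was -0.05. The part of these cells, or of the division itself, in the Cd69 values was not tested.

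**Figure D3:**
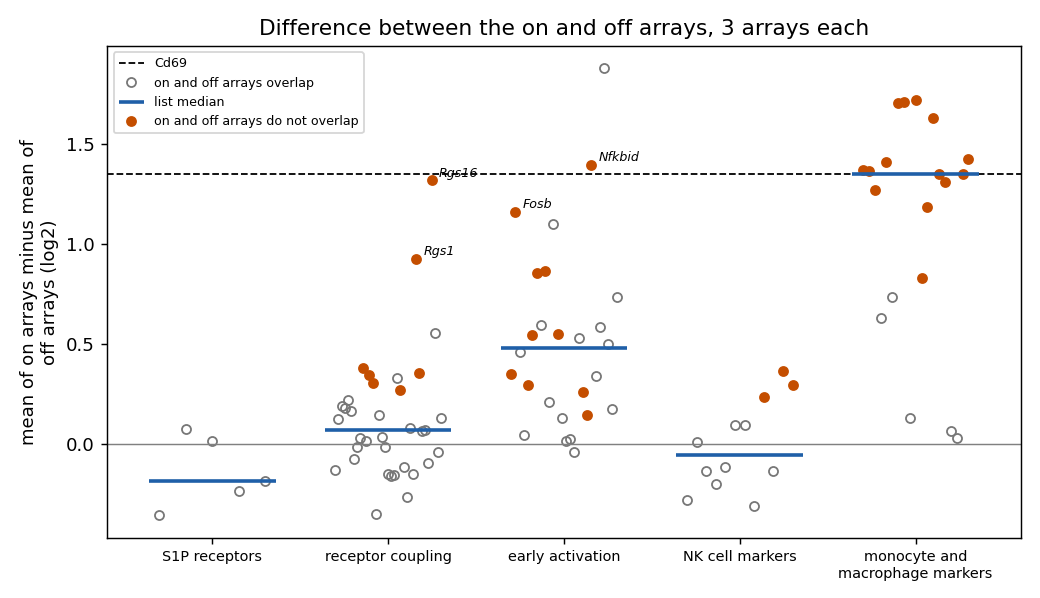
Mean of the 3 on arrays minus mean of the 3 off arrays (y axis, log2) for each gene of 5 lists (x axis), filled where the on and off arrays do not overlap, with blue lines for list medians and a dashed line for Cd69 at 1.35. Early activation genes lie mostly above 0 with a median of 0.48, and monocyte and macrophage markers higher, at 1.35.

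Enzymes and carriers that make, export or break down S1P gave 1 call, in the outer comparison. Of 17 such genes 6 were above background, and 11, among them the kinase genes Sphk1 and Sphk2 and the transporter gene Spns2, were not. Sgpl1, which encodes the lyase that breaks S1P down irreversibly, was 7.41 and 7.47 in the CD27+CD11b- samples, 7.69 and 7.82 in the CD27+CD11b+ samples and 8.30 and 8.13 in the CD27-CD11b+ samples. It rose by 0.78 in the outer comparison (SE 0.15, limma adjusted p = 0.0349) and its limma adjusted p was 0.218 without CD27-CD11b+ replicate 1. A dimmer probe set of Sgpl1, with a mean of 5.04, gave -0.05. The median outer difference of the 17 genes was 0.05.

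Genes for the proteins that couple, internalise or silence these receptors gave no call in the limma fit without a block. Of 35 measured, 33 were above background, and 1, 5 and 12 had an unadjusted limma p under 0.05 in the CD11b, CD27 and outer comparison. Most genes above background had positive outer differences: 32.23% of them had one below 0.0043, and 58.74% one below 0.24. The median outer difference of the 35 was 0.24, with 27 of 35 differences above 0. The largest outer differences were 0.76 for Arrb1, which encodes an arrestin that uncouples and internalises receptors (SE 0.17, limma adjusted p = 0.0514), and -0.69 for Rgs1 (SE 0.43, limma adjusted p = 0.444). With the array division as a block, 1, 2 and 4 of the 35 genes were called in the CD11b, CD27 and outer comparison, among the last Arrb1 (limma adjusted p = 0.0207) and Rgs1 (limma adjusted p = 0.0297).

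Transcription factors tied to S1P receptors or to NK cell maturation held several calls. Of 19 measured, 5 were higher and 0 lower in the outer comparison, 2 were higher and 0 lower in the CD27 step, and 0 were called in the CD11b step, where 5 had an unadjusted limma p under 0.05. The median outer difference was 0.24, and 58.97% of genes above background had a smaller one. Of all genes, 2.24% were called higher and 1.15% lower in the outer comparison, and 0.17% and 0.126% in the CD27 step. All genes include those below background, whereas all 19 were above it. A fit of the 8377 genes above background alone called 678 of them in the outer comparison and 60 in the CD27 step. Tbx21 encodes T-bet, a driver of NK cell maturation known to support S1pr5 expression. Tbx21 was 10.80 and 10.43 in the CD27+CD11b- samples, 11.16 and 11.10 in the CD27+CD11b+ samples and 11.73 and 11.70 in the CD27-CD11b+ samples, and it rose by 1.10 in the outer comparison (SE 0.17, limma adjusted p = 0.0158).

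Zeb2, which encodes a zinc finger repressor needed late in NK cell maturation, rose by 1.38 in the CD27 step (limma adjusted p = 0.0165) and by 2.30 in the outer comparison (limma adjusted p = 4.66e-04). Prdm1, which encodes Blimp-1, rose by 1.47 and 2.34 (limma adjusted p = 0.0254 and 8.25e-04). Klf2, known for driving S1pr1 in T cells, was 10.94 and 11.69 in the CD27+CD11b- samples, 11.74 and 12.35 in the CD27+CD11b+ samples and 13.13 and 12.54 in the CD27-CD11b+ samples. It rose by 1.52 in the outer comparison (SE 0.32, limma adjusted p = 0.0448), in which S1pr1 differed by 0.15. Klf3 rose by 0.94 on its brightest probe set (limma adjusted p = 0.0288), and its other probe sets varied. Those with means of 8.51, 8.41, 7.87 and 7.05 gave outer differences of 1.16, 0.22, 0.55 and 1.41. Those with means of 5.56 and 5.08, below background, gave -0.09 and 0.81. Without CD27-CD11b+ replicate 1 the outer calls of this list were 2, Zeb2 and Prdm1, and no call remained in the CD27 step.

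Homing receptors moved in both directions. Of 21 genes for lymph node entry, bone marrow retention and tissue homing, 2 were higher and 4 lower in the outer comparison, 2 higher and 2 lower in the CD27 step, and 1 higher in the CD11b step, with a median outer difference of 0.06. With the array division as a block, 6 were higher and 4 lower in the outer comparison, 2 higher and 3 lower in the CD27 step, and 1 higher and 2 lower in the CD11b step. Without the block, 2.24% of all genes were called higher and 1.15% lower in the outer comparison. Of the 21 homing genes 18 were above background, a larger share than among all genes. Cx3cr1, the fractalkine receptor, was 6.65 and 6.66 in the CD27+CD11b- samples, 7.46 and 7.26 in the CD27+CD11b+ samples and 11.94 and 10.95 in the CD27-CD11b+ samples. It rose by 4.08 in the CD27 step (SE 0.29, limma adjusted p = 0.00238) and by 4.79 in the outer comparison (limma adjusted p = 2.92e-04). Cmklr1, the chemerin receptor, rose by 1.42 in the CD11b step, 1.34 in the CD27 step and 2.76 in the outer comparison (limma adjusted p = 0.0279, 0.0254 and 2.88e-04), and a probe set of Cmklr1 with a mean of 4.48 gave -0.17 in the last.

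Cxcr3, a receptor of inflamed tissue, fell by 1.84 in the CD27 step and by 2.10 in the outer comparison (limma adjusted p = 0.0276 and 0.0044). Ccr2, which brings cells to sites of CCL2, fell by 1.03 and 0.81 on its brightest probe set (limma adjusted p = 0.0489 and 0.0325). Its probe sets with means of 9.58, 9.23 and 7.95 gave -1.45, -0.44 and -1.35 in the CD27 step. In the outer comparison they gave -1.06, -0.11 and -1.23. Cxcr6, a receptor of liver-resident lymphocytes, was below background in CD27-CD11b+ cells, with a mean of 5.37, as was Gpr183, the oxysterol receptor EBI2, with a mean of 5.98. Taking the background level as the floor, Cxcr6 was at least 2.17-fold lower and Gpr183 at least 6.48-fold lower there than in CD27+CD11b- cells (limma adjusted p = 0.0309 and 0.0126). Cxcr6 was already below background in CD27+CD11b+ cells. Its measured differences were -2.84 in the CD11b step and 0.50 in the CD27 step, and those of Gpr183 were -1.47 and -1.84. None of these step differences was called. Without CD27-CD11b+ replicate 1 the outer calls of the list were 2, Cx3cr1 and Cmklr1, the call in the CD27 step was Cx3cr1 alone, and no call remained in the CD11b step.

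Early activation and interferon genes are listed here because CD69 protein is induced by both kinds of signal. Of the 26 early activation genes, 1 was higher and 1 lower in the outer comparison, and 0 were called in either step, where 2 and 4 had an unadjusted limma p under 0.05. With the array division as a block, 4 were higher and 5 lower in the outer comparison, 3 were lower in the CD27 step and 1 was lower in the CD11b step. Ier2, an immediate early gene, rose by 1.04 (limma adjusted p = 0.0304). Il2ra, the interleukin-2 receptor alpha chain, was called lower (limma adjusted p = 0.0190) but had means below background in every subset, the highest 6.46, so that no fold is given. Of 16 type I interferon response genes, 4 were lower and 0 higher in the outer comparison, with a median of -0.29. Of all genes, 1.15% were called lower and 2.24% higher. Of the 16 genes 12 were above background, a larger share than among all genes. Rtp4 fell by 1.09, Ifit3 by 0.99 and Oas1a by 0.87 (limma adjusted p = 0.00863, 0.0454 and 0.0489). Ifit1 was below background in CD27-CD11b+ cells, with a mean of 5.66, and was at least 1.42-fold lower there than in CD27+CD11b- cells (limma adjusted p = 0.00927), taking the background level as the floor. With the array division as a block, 5 interferon genes were lower in the CD27 step and 4 in the outer comparison. Without CD27-CD11b+ replicate 1 no call of either list remained.

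**Figure D4:**
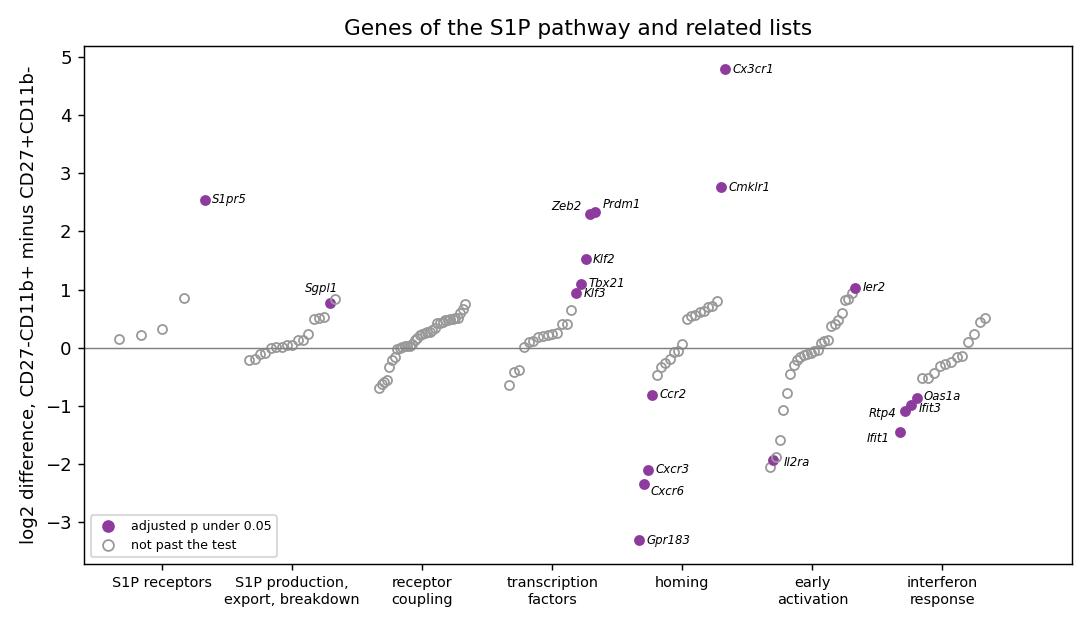
Log2 difference in the outer comparison (y axis) for every measured gene of 7 lists (x axis), in rising order within a list, filled purple where the limma adjusted p was under 0.05. S1pr5 at 2.54 stands above the other 4 receptor genes, and no coupling gene is filled.

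Of the 4 genes, S1pr5 had subset means far enough apart (at least 1 log2 unit) to look for genes of like profile. Likeness was the root mean square difference over the 6 arrays after each gene was centred on its own mean, among genes above background. The nearest were Zeb2 (0.16), Prdm1 (0.20), Cdh22 (0.23), Cmklr1 (0.26) and Krt86 (0.27), with Pearson correlations with S1pr5 of 0.993, 0.984, 0.976, 0.975 and 0.967 over the same 6 arrays, given as a description. Cdh22, a cadherin gene, was 5.70 and 5.99 in the CD27+CD11b- samples, 6.53 and 6.69 in the CD27+CD11b+ samples and 8.31 and 8.23 in the CD27-CD11b+ samples. Krt86, a keratin gene, had means of 5.43, 5.87 and 7.78. Krt86 was thus below background in both CD27+ subsets, and Cdh22 was below it in the CD27+CD11b- subset and close to it in the CD27+CD11b+ subset, so their likeness to S1pr5 rests partly on values at the floor. Since the 5 genes were chosen for their likeness, their rise with S1pr5 is no separate result.

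**Figure D5:**
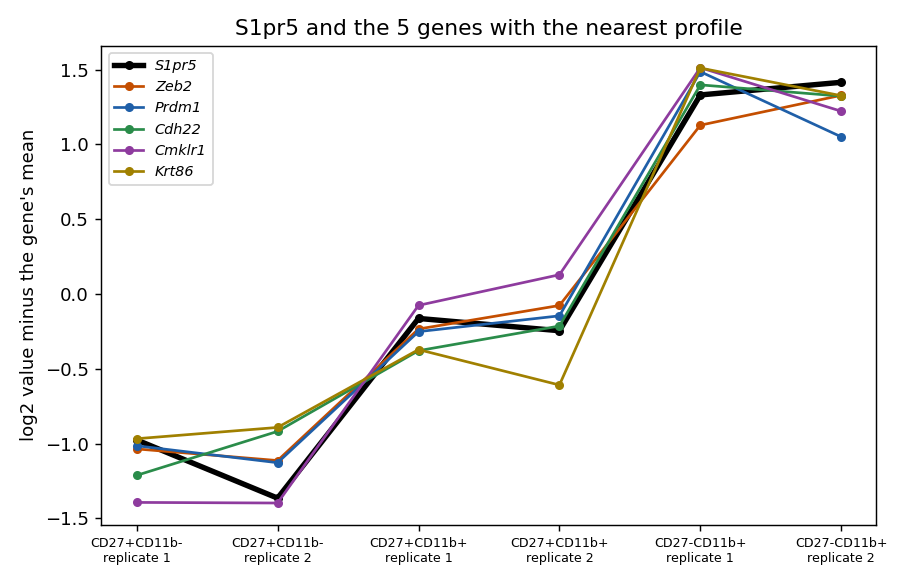
Log2 value minus each gene's mean over the 6 arrays (y axis) for S1pr5 (thick black line) and its 5 nearest genes (thin lines) on each array (x axis). All 6 lines rise by subset, and Zeb2 stays closest to S1pr5, at a root mean square difference of 0.16.

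S1pr5 lies on chromosome 9 near S1pr2, with 11 protein-coding genes between them in the RefSeq gene table, of which 10 were measured. Of these, 1 was called, in the outer comparison: Tyk2, a kinase of cytokine receptors, had 9.74 and 9.75 in the CD27+CD11b- samples, 10.19 and 10.05 in the CD27+CD11b+ samples and 10.63 and 10.64 in the CD27-CD11b+ samples (limma adjusted p = 0.0195). Tyk2 and this interval were chosen after their values were seen.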

How the data were processed

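The authors' deposited table holds log2 expression values of 45101 probe sets on 6 arrays, produced by RMA, of unstated version, according to the submitters' processing notes. RMA gives all arrays the same distribution, which takes out any shift common to most genes, and it shrinks differences between low values. Array medians lay between 5.26 and 5.36, and 2 arrays a subset limit the precision. After 64 controls were left out, probe sets with 1 symbol in the array annotation were named (34945, with 932 having several symbols and 9160 none), and each gene was taken from its brightest probe set. limma 3.58.1 (R 4.3.3) was fitted with 1 mean per subset, with 3 residual and 4.93 prior degrees of freedom, Benjamini-Hochberg adjusted over all 18193 genes, and was tested on simulated data. Named were the 4 genes, every called gene of the lists, the 2 largest differences of a list with no call, and the 5 genes nearest to S1pr5. Sphk1, Sphk2, Spns2, Tyk2, the cell type markers and the genes named for their difference between on and off arrays fall outside this rule and were chosen after their values were seen. Also outside it are S1pr2 and S1pr3, named as the rest of the receptor family, and Cd27 and Itgam, the genes of the sort markers. Members, lists and the array division were chosen with earlier results of these data known.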

Additional observations from a re-analysis of the deposited data

How the results depend on the processing

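Of 180 alternative values of the differences of the 4 genes, 164 kept their direction and side of the threshold, 6 lost the call, 1 gained it and 9 reversed. Many of these alternatives could not reverse a difference. With 1 probe set per gene, the probe set settings, the background filter and the trend and robust spread leave the difference unchanged. So do both blocks, which divide every subset evenly. Comparing only the 2 subsets, or leaving out an array of the third, gives the same fit, with the difference again unchanged. The 164 is therefore no count of separate checks. Of 73 alternative counts of called genes, 29 stayed within 1.5 times the count reported (the outer 617 became up to 917), 35 were lower and 9 higher. S1pr5 lost its call in the CD27 step with every probe set tested (1.58, limma adjusted p = 0.0943), with 32 added to linear values (1.56, limma adjusted p = 0.0823) and with any of the 4 arrays compared left out. Leaving out each array in turn, the S1pr5 step ranged from 1.53 to 1.62. The 9 reversals, all of differences that did not pass the test, came from leaving out 1 array: Cd69 ranged from -0.47 to 1.01 in the CD11b step, -1.11 to 0.20 in the CD27 step and -0.93 to 0.55 in the outer comparison, and S1pr1 from -0.025 to 0.56, -0.40 to 0.18 and -0.11 to 0.41. Replicate numbers did not go together across all 3 subsets. Replicate 1 minus replicate 2 correlated across genes at 0.62 between the CD27+ subsets. The correlation with CD27-CD11b+ cells was -0.14 for CD27+CD11b+ cells and -0.25 for CD27+CD11b- cells. S1pr1 and S1pr4 were higher on replicate 1 than on replicate 2 in every subset. With the number as a block all the same (replicate block), the outer difference of S1pr4 was 0.85 with a limma adjusted p of 0.0287, and no other call of the 4 genes changed. Numbers of called genes moved more. In the CD11b step 22 genes became 11 with the mean of all probe sets, 0 with every probe set (1339 at an unadjusted limma p under 0.05), 0 with 32 added (843), 12 with only the 2 subsets compared, 58 with the array division as a block, and 4 to 30 with 1 array left out. In the CD27 step 54 became 18 with every probe set, 11 with 32 added, 101 with a trend and robust spread, 296 with the division block, and 6 to 53 with 1 array left out. The outer 617 became 288, 367 and 1480 with every probe set, 32 added and the division block, and 84 to 635 with 1 array left out. The F test's 246 became 93, 55, 386 and 874 with every probe set, 32 added, trend and robust spread and the division block, and 53 to 237 with 1 array left out. The difference between the steps, called for 1 gene, became 2 among genes above background, 3 with trend and robust spread, 2 with the division block, and 0 with every probe set (1146 at an unadjusted limma p under 0.05), 32 added (799), the replicate block (720) or any 1 array left out (479 to 984). Counts of called list genes without CD27-CD11b+ replicate 1 or with the division block were added after seeing the data. With the block, outer calls of the lists not given above were 1 of 5 receptors, 2 of 17 S1P metabolism genes and 5 of 19 transcription factors, and 4 of the 19 were called in the CD27 step.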
